A study of Mus musculus with 12 samples.

Results

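Hyaluronan synthesis and matrix genes were described here as 10 genes of the 41091 gene IDs counted in hippocampal slices: the hyaluronan synthases Has1, Has2 and Has3, the hyaluronidases Hyal1 and Hyal2, the hyaluronan receptor gene Cd44, and the lecticans Vcan, Acan, Bcan and Ncan. They were picked by name, matched by Ensembl ID to GENCODE M21, and found with counts in both tables. The set was chosen in part because Has1 was higher 3 hr post LTP, so every contrast of Has1 that uses a 3 hr library is given as a description with no test. The data were RNA-seq counts from acute slices of hippocampus without the dentate gyrus, which had been trimmed away, of C57BL/6 wild-type mice that were 2 to 3 months old. LTP was induced chemically: forskolin, which activates adenylyl cyclase, was given at 50 uM for 5 min and then for 5 min more together with KCl at 30 mM and calcium at 10 mM. Control slices received 0.2% DMSO for 10 min, and slices of both kinds were collected 1 hr or 3 hr later, which gave 4 groups of 3 libraries. Each animal of a time point supplied both LTP and control slices.

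Hyaluronan is a long unsulfated polysaccharide made at the plasma membrane by the hyaluronan synthases, which extrude the growing chain into the extracellular space. In brain it forms the backbone of the extracellular matrix and of perineuronal nets, the dense coats around some neurons, and the lecticans, a family of chondroitin sulfate proteoglycans, bind it through their N-terminal domains. Hyaluronidases cut the chain, and CD44 is its main cell surface receptor.

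Library totals ran from 37118382 to 50815001 counts, and a floor of 3 counts corresponded to 0.059 to 0.0808 CPM, taken on the totals as deposited. The CPM values of genes are counts divided by library size with the TMM scaling of edgeR. 1 hr control replicate 2 was left out of every test, because the study excluded it as an outlier, and its values are shown. The activity-regulated genes Arc and Fos were higher in LTP slices of 3 of 3 animals at both times. By edgeR's quasi-likelihood test, without 1 hr control replicate 2, they differed by 1.99 and 1.97 on the log2 scale at 1 hr (adjusted p = 3.57e-09 and 1.67e-09). At 3 hr they differed by 1.30 and 1.48 (adjusted p = 3.21e-05 and 0.000109, edgeR). Per the study, libraries were made from samples in which qPCR had shown higher Arc after LTP. Arc is thus no independent check of induction. Summed markers of neurons reached 5964 to 7608 CPM and those of astrocytes 4259 to 5092 CPM, and no listed marker was at 0 in all libraries. The 5 dentate granule cell markers still summed to 162.1 to 293.2 CPM. In such bulk samples, fewer cells of a type and less RNA per cell cannot be told apart.

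Per kb of exonic length, the 10 genes fell into a high pair and a low group. Bcan had the highest level, at 38.7 ± 8.14 CPM per kb (SD over 12 libraries), and Ncan followed at 28.4 ± 3.59. The ranges of this pair overlapped, and every Ncan library was above every library of Vcan, the next in order at 2.83 ± 0.410. Brevican and neurocan, the products of Bcan and Ncan, are lecticans largely confined to nervous tissue, whereas versican (Vcan) and aggrecan (Acan) are also found in other connective tissues. Acan reached 2.12 ± 0.797, Cd44 2.09 ± 0.863, Hyal2 1.65 ± 0.332 and Has2 1.24 ± 0.594 CPM per kb. Each of these overlapped its neighbour in the order when all 12 libraries were pooled. Within groups the order differed: Vcan had rank 3, without overlap with the next gene, in both 1 hr groups and rank 5, behind Cd44 and Acan, in both 3 hr groups, where it overlapped its neighbour above. Bcan and Ncan did not overlap in any group but 1 hr control. Hyal1 followed at 0.649 ± 0.0706, Has3 at 0.450 ± 0.0696 and Has1 at 0.196 ± 0.199, and these neighbours overlapped too, with Has1 above Has3 by mean in 3 hr LTP slices alone. Over 12 libraries, Bcan exceeded 94.0% of genes by this measure and Ncan 91.2%, whereas Has2 exceeded 32.3% and Has1 9.58%. Per the study, expression was analysed from reads on coding sequence, while the tables also list non-coding genes, so which exons the counts cover is uncertain and levels per length are approximate. With coding length in place of exonic length, an alternative chosen after seeing the data, Bcan (59.4 CPM per kb) and Ncan (53.6) still lay apart from the rest and Hyal1, Has3 and Has1 still came last, but the order between them became Cd44, Vcan, Hyal2, Has2 and Acan. In addition, 51.9% of the exonic bases of Hyal1 are shared with neighbouring genes on the same strand, among them Naa80, so Hyal1 values are uncertain.

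**Figure D1:**
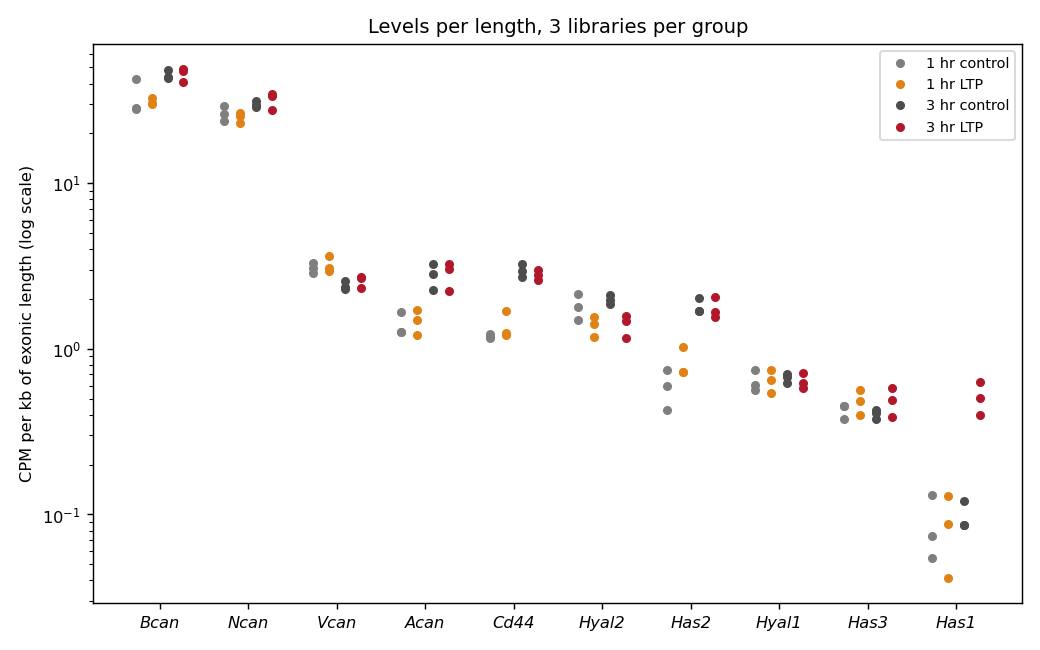
Levels of the 10 genes per kb of exonic length in 12 libraries (y axis, CPM per kb, log scale; x axis, genes ordered by mean; colours mark the 4 groups). Bcan and Ncan lie apart from the other genes, and the 3 hr LTP libraries of Has1 lie above its other libraries.

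Has1 (GRCm38, chr17:17843323-17855205, minus strand) encodes 1 of the 3 membrane synthases of hyaluronan. Its promoter is shown because Has1 had the difference that chose the set, and it was searched for motifs of activity-regulated transcription factors, among them the cAMP response element (CRE). Whether any of them bears on Has1 was not tested. The sequence below covers the 250 bases before the RefSeq start of the gene (GRCm38.p6, chr17:17855189-17855438, minus strand), 5′ to 3′; the GENCODE model above starts further upstream, so the last bases of this window lie inside it. It is printed with a full CRE, TGACGTCA, in capitals.
Has1 promoter: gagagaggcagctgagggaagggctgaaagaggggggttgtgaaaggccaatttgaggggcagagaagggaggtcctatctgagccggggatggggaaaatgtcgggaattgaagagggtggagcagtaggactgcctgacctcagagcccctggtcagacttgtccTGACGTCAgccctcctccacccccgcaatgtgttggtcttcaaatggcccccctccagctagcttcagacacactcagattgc

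The CRE lay 83 to 76 bases before the RefSeq start. It is the same on both strands and contains both matches to the shortened CRE motif TGACG found in this promoter. Of 32851 mouse promoters of this length in the table, 1.55% held a full CRE and 17.8% the shortened motif on either strand. The AP-1 motif TGANTCA and the EGR motif GCGNGGGCG occurred in 6.75% and 4.7% of all promoters and in none of the genes described here. Promoters were available for 8 of the 10 genes (not Has2 and Has3), and of these 8 only that of Has1 held the CRE or its shortened form. A match describes these letters in this window and was not tested as a binding site.

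Has1 was low in every control and 1 hr LTP library and higher in all 3 libraries at 3 hr post LTP. In 1 hr control slices it was at 0.336, 0.248 and 0.592 CPM in animals 1, 2 and 3, from 13, 12 and 25 counts. In 1 hr LTP slices it was at 0.583, 0.396 and 0.188 CPM, from 24, 15 and 8 counts. These groups overlapped fully, and 2 animals were higher and 1 lower after LTP. The 1 hr difference was -0.25 on the log2 scale (SE 0.508, 95% interval -1.34 to 0.83), with an adjusted p of 0.974 by edgeR's quasi-likelihood test. At 1 hr, the cell type markers also differed in part between LTP and control slices. The mural cell marker Myh11 fell by 0.68 (adjusted p = 0.0465, edgeR). At an unadjusted p under 0.05, 6.71% of all genes differed. So did 3 of 5 endothelial markers (median of the list -0.24), 3 of 6 fibroblast and meninges markers (median -0.51) and 3 of 5 oligodendrocyte markers (median 0.22). The other marker lists had from 0 to 2 such markers. The endothelial marker sum was 95.6 to 104.1 CPM in 1 hr control and 81.2 to 86.6 CPM in 1 hr LTP slices. The part of these cells in the 1 hr values of the set was not tested.

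At 3 hr, control slices held 0.389, 0.544 and 0.389 CPM of Has1, from 18, 25 and 20 counts. LTP slices of the same animals held 2.86, 1.80 and 2.27 CPM, from 126, 82 and 86 counts. The lowest LTP library thus stood above the highest library of each other group. The means were 0.441 ± 0.0896 and 2.31 ± 0.532 CPM (SD, n = 3), and the fitted difference was 2.40 on the log2 scale (SE 0.255), a 5.28-fold higher level. Per animal, the log2 ratio of LTP to control was 2.60, 1.56 and 2.28. These values chose the gene and are given with no test. Between the time points, the LTP groups differed by 2.55 on the log2 scale (SE 0.347) and the control groups by -0.12 (SE 0.423), again as a description. At 3 hr, none of the markers of 10 cell types was called between LTP and control slices by edgeR, beside 6.6% of all genes. A call needed a fold change over 1.2 with an adjusted p under 0.1. At an unadjusted p under 0.05, from 0 to 2 markers per list differed, beside 20.2% of all genes (3540 of 17508). The 6 fibroblast and meninges markers had a median difference of -0.42 at 3 hr, with 2 of them at an unadjusted p under 0.05. They summed to 21.4 to 30.8 CPM in 3 hr control and 14.7 to 24.0 CPM in 3 hr LTP libraries, which overlapped. Their part in the 3 hr values of Has1 and the other genes of the set was not tested.

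The 5 genes whose log2(CPM + 0.5) followed Has1 most closely over 12 libraries, among 14185 genes whose mean was 1 CPM or more, were Kctd16 (Pearson r = 0.946), Rnf217 (r = 0.942), Ankrd13a (r = 0.932), Celf1 (r = 0.931) and Cd1d1 (r = 0.930). The libraries share depth, animals and time points, so these values are descriptions. All 5 were highest in 3 hr LTP slices, which follows from their choice by likeness to Has1, itself high in that group alone. Rnf217 had means of 48.3 and 56.3 CPM in 1 hr control and 1 hr LTP slices, and of 49.8 and 98.9 CPM in 3 hr control and 3 hr LTP slices. The other synthases followed Has1 less closely, with r = 0.553 for Has2 and 0.307 for Has3.

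**Figure D2:**
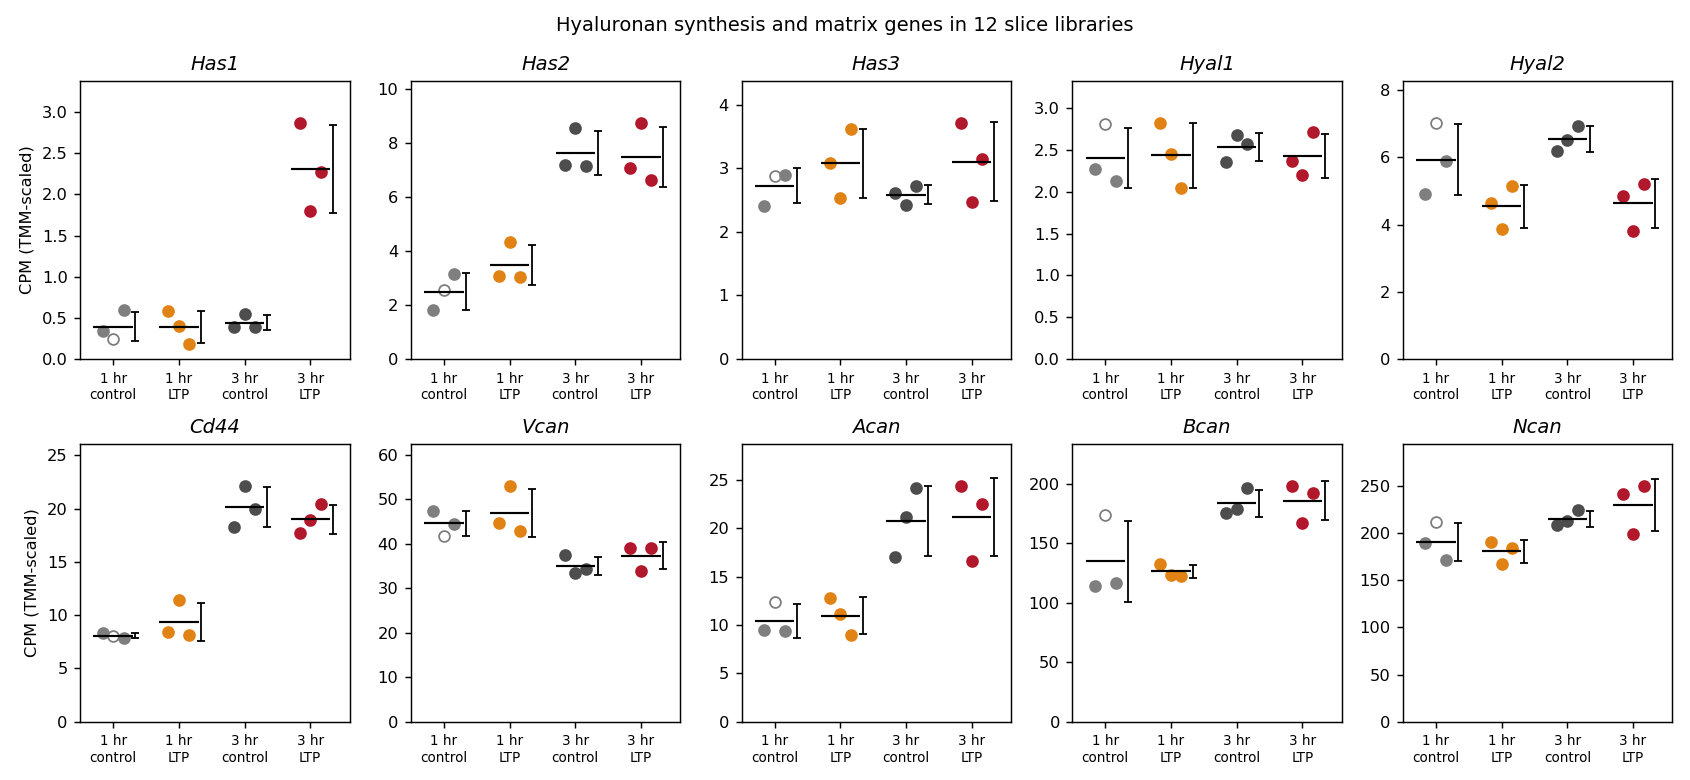
CPM of each gene in 12 libraries (y axis, TMM-scaled CPM from 0; x axis, the 4 groups; filled points, libraries in order of animal; open points, 1 hr control replicate 2, left out of the tests; horizontal line and bar, mean and SD of 3 libraries). Has1 was between 1.80 and 2.86 CPM at 3 hr post LTP and no higher than 0.592 CPM elsewhere, whereas Has2, Cd44 and Acan were higher in all 6 libraries at 3 hr than in all 6 at 1 hr.

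Has2 (chr15:56665627-56694539, minus strand), the synthase with the highest level per length here, differed with time in both treatments. It was at 1.81, 2.54 and 3.15 CPM in 1 hr control slices and at 3.06, 4.32 and 3.06 CPM in 1 hr LTP slices. At 3 hr it was at 7.18, 8.56 and 7.16 CPM in control and at 7.07, 8.72 and 6.62 CPM in LTP slices. All 3 hr libraries lay above all 1 hr libraries, while LTP and control overlapped at each time. The difference between 3 hr and 1 hr was 1.58 on the log2 scale in control slices (SE 0.220, adjusted p = 0.000263) and 1.09 in LTP slices (SE 0.187, adjusted p = 0.000702), by edgeR's quasi-likelihood test. LTP against control gave 0.49 at 1 hr (95% interval -0.034 to 1.02, adjusted p = 0.794) and -0.01 at 3 hr (95% interval -0.30 to 0.27, adjusted p = 0.964) in the same test. With 1 library left out, the 1 hr difference ran from 0.15 to 0.95 and was not called. Of its exonic bases, 182 overlap the antisense gene Has2os, and whether the counting used strand was not stated.

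Has3 (chr8:106870242-106884566, plus strand), the third synthase, stayed between 2.40 and 3.70 CPM in all 12 libraries, and all 4 groups overlapped. At 3 hr it was higher in LTP slices of 3 of 3 animals, with log2 ratios of 0.49, 0.025 and 0.20. LTP against control gave 0.23 at 1 hr (95% interval -0.21 to 0.67, adjusted p = 0.935) and 0.27 at 3 hr (-0.11 to 0.65, adjusted p = 0.395) by edgeR. Opposite-strand exons of Chtf8 cover 352 of its exonic bases.

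The make-up of the summed synthase level is given as a description, since the 3 hr values of Has1 chose the set. The sum of the 3 genes was 1.10 ± 0.225 CPM per kb in 1 hr control, 1.39 ± 0.0994 in 1 hr LTP, 2.30 ± 0.186 in 3 hr control and 2.76 ± 0.178 in 3 hr LTP slices (SD, n = 3). Has2 held 53.0% ± 3.86 of the sum in 1 hr control and 78.1% ± 1.85 in 3 hr control slices. Has1 held 7.77% ± 2.53 in 1 hr control, 6.20% ± 3.29 in 1 hr LTP, 4.21% ± 0.498 in 3 hr control and 18.6% ± 4.09 in 3 hr LTP slices. At 3 hr post LTP, Has2 held the largest share, at 63.8% ± 7.63. By coding length, Has1 held 3.92% ± 0.506 in 3 hr control and 17.2% ± 3.56 in 3 hr LTP slices, whereas Has2 (44.7% ± 3.96) and Has3 (48.7% ± 4.84) held like shares in 1 hr control slices.

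**Figure D3:**
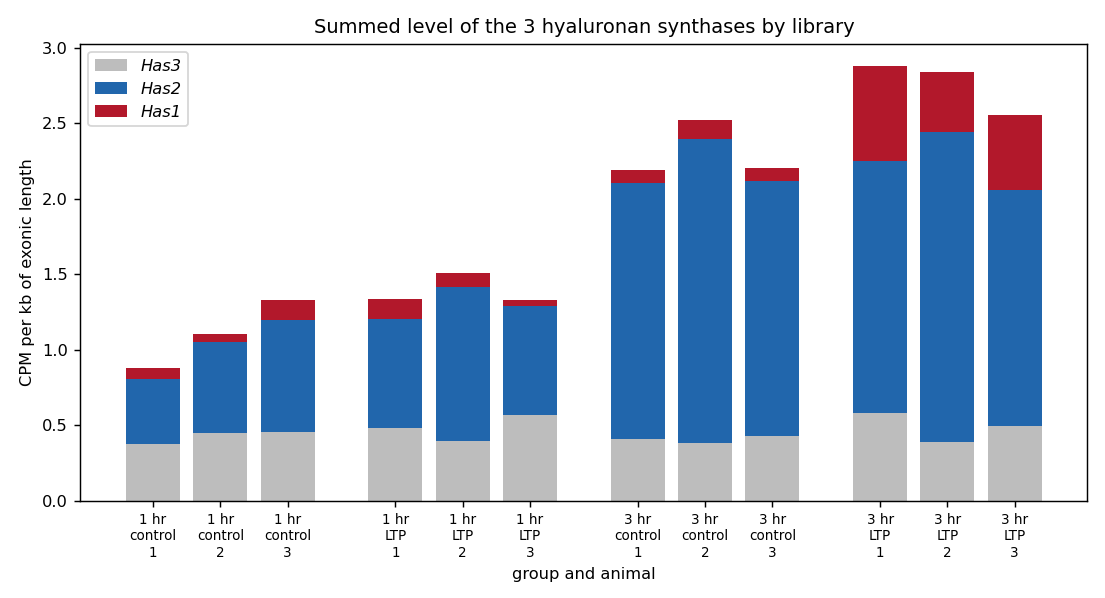
Stacked levels of Has3, Has2 and Has1 per library (y axis, CPM per kb of exonic length from 0; x axis, groups and animals). The Has2 block is taller in all 6 libraries at 3 hr, and Has1 forms 14.0% to 22.0% of the bar in the 3 hr LTP libraries.

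Among the hyaluronidases, Hyal2 (chr9:107567945-107572779, plus strand), which encodes a GPI-anchored enzyme that cuts long hyaluronan chains into shorter ones, was lower in LTP slices at 3 hr. Control slices held 6.19, 6.53 and 6.95 CPM, and LTP slices of the same animals held 4.86, 3.82 and 5.22 CPM. The groups did not overlap, which held for 26.2% of 18332 genes at 3 hr. Hyal2 fell by 0.49 on the log2 scale (SE 0.130, 95% interval -0.78 to -0.20), with an adjusted p of 0.0776 by edgeR's quasi-likelihood test, and it was lower in 3 of 3 animals. It was the only call among the 9 genes tested at 3 hr, where 6.6% of all genes were called (1155 of 17508; 5.07% higher and 1.53% lower), so 1 call in 9 is near the background. The call was lost when control replicate 1, 2 or 3 or LTP replicate 1 was left out (adjusted p 0.189, 0.256, 0.212 and 0.194 by edgeR), with the difference between -0.59 and -0.36 over all alternatives.

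At 1 hr, Hyal2 was at 4.91, 7.01 and 5.90 CPM in control and at 4.64, 3.88 and 5.15 CPM in LTP slices. It was again lower in LTP slices of all 3 animals, although the groups overlapped, and the highest value was that of the library left out of the tests. The difference was -0.23 (95% interval -0.59 to 0.12, adjusted p = 0.906, edgeR), and it did not differ detectably from that at 3 hr (difference of differences -0.25, 95% interval -0.70 to 0.21, adjusted p = 0.928). Hyal1 (chr9:107576927-107581710, plus strand), which encodes a lysosomal hyaluronidase, ranged from 2.05 to 2.82 CPM and overlapped between all groups of 3 libraries. LTP against control gave 0.16 at 1 hr (95% interval -0.30 to 0.62, adjusted p = 0.960) and -0.05 at 3 hr (-0.37 to 0.26, adjusted p = 0.868) by edgeR.

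Cd44 (chr2:102811141-102901665, minus strand) encodes the receptor and was higher at 3 hr in both treatments. It was at 8.29, 8.03 and 7.84 CPM in 1 hr control slices and at 8.45, 11.4 and 8.16 CPM in 1 hr LTP slices. At 3 hr it was at 18.3, 22.1 and 19.98 CPM in control and at 17.7, 18.9 and 20.4 CPM in LTP slices. No 3 hr library overlapped a 1 hr library. By edgeR's quasi-likelihood test, Cd44 rose by 1.29 on the log2 scale in control (SE 0.138, adjusted p = 6.95e-05) and by 1.00 in LTP slices (SE 0.121, adjusted p = 7.73e-05). LTP slices were higher in 3 of 3 animals at 1 hr and in 1 of 3 at 3 hr. LTP against control gave 0.22 at 1 hr (95% interval -0.10 to 0.55, adjusted p = 0.900) and -0.07 at 3 hr (-0.28 to 0.14, adjusted p = 0.709). The 1 hr difference ran from 0.050 to 0.31 with 1 library left out. The genes most like Cd44 over 12 libraries, by the same measure, were Ccl2, a chemokine (r = 0.986), Otud7b (0.986), Gbp2b (0.984), Ptx3, whose product binds partners of hyaluronan (0.980), and Ahnak (0.980). Has2 ranked 56 of 14184 genes (r = 0.953) and Acan 308 (r = 0.906).

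The lecticans moved in different directions with time and showed no call with LTP. Acan (chr7:79053483-79115099, plus strand) encodes aggrecan, the lectican best known from cartilage and from perineuronal nets. It was at 9.48, 12.4 and 9.38 CPM in 1 hr control, 12.9, 11.1 and 9.03 in 1 hr LTP, 17.0, 21.2 and 24.2 in 3 hr control and 24.4, 16.6 and 22.6 in 3 hr LTP slices. All 3 hr libraries were above all 1 hr libraries, with a rise of 1.11 in control (SE 0.182, adjusted p = 0.000784) and 0.93 in LTP slices (SE 0.161, adjusted p = 0.000755) on the log2 scale by edgeR.

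Bcan (chr3:87987531-88000230, minus strand) was at 113.7, 173.7 and 116.4 CPM in 1 hr control and at 132.8, 123.3 and 122.7 CPM in 1 hr LTP slices. At 3 hr it was at 175.5, 178.3 and 196.0 CPM in control and at 197.8, 166.7 and 192.4 CPM in LTP slices. The library with 173.7 CPM is 1 hr control replicate 2, and without it no 3 hr library overlapped a 1 hr library. For LTP against control at 1 hr, also without it, Bcan differed by 0.14 on the log2 scale (95% interval -0.0019 to 0.29, adjusted p = 0.754, edgeR). With it included, that difference was -0.085. Bcan rose by 0.64 in control (SE 0.0809, adjusted p = 0.000161) and by 0.54 in LTP slices (SE 0.0723, adjusted p = 0.000145) by edgeR. With that library included, the control difference was 0.44 and was still called.

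Ncan (chr8:70093085-70120873, minus strand) was at 188.9, 211.5 and 171.4 CPM in 1 hr control, 190.8, 166.8 and 184.1 in 1 hr LTP, 207.9, 213.0 and 224.4 in 3 hr control and 241.7, 198.6 and 249.5 in 3 hr LTP slices. The 1 hr control library at 211.5 CPM, again replicate 2, lay within the 3 hr control range. Ncan rose by 0.33 in LTP slices (SE 0.0848, adjusted p = 0.00824, edgeR). In control slices the difference was 0.23 (SE 0.0948, adjusted p = 0.0862, edgeR), a 1.17-fold change that stayed under the fold change minimum of 1.2.

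Vcan (chr13:89655312-89742509, minus strand), whose product versican is in brain associated with oligodendrocyte precursors and white matter, was the only gene of the set called lower at 3 hr than at 1 hr. It was at 47.4, 41.7 and 44.5 CPM in 1 hr control and at 44.7, 52.9 and 42.7 CPM in 1 hr LTP slices. At 3 hr it was at 37.4, 33.4 and 34.3 CPM in control and at 39.1, 33.9 and 39.0 CPM in LTP slices. All 3 hr libraries were below all 1 hr libraries. Vcan fell by 0.42 in control (SE 0.101, adjusted p = 0.00667) and by 0.34 in LTP slices (SE 0.0904, adjusted p = 0.00933) by edgeR, and the LTP call was lost without 1 hr LTP replicate 2 (-0.22). As a share of the summed lectican level per length, Vcan was 4.92% ± 1.00 in 1 hr control and 3.03% ± 0.298 in 3 hr control slices, while Bcan was 51.3% ± 4.13 and 56.2% ± 0.467. By coding length the Vcan shares were 4.17% ± 0.831 and 2.60% ± 0.252.

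For LTP against control, all 4 lecticans gave small differences. At 1 hr the differences were 0.23 for Acan, 0.14 for Bcan, 0.04 for Vcan and 0.01 for Ncan, with adjusted p from 0.754 to 0.996 by edgeR. At 3 hr they were 0.04, 0.03, 0.11 and 0.11, with adjusted p from 0.517 to 0.923 by edgeR. Vcan was higher in LTP slices of 3 of 3 animals at 3 hr and of 1 of 3 at 1 hr. The 3 hr interval was -0.15 to 0.21 for Bcan and -0.09 to 0.31 for Ncan.

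Counted over the set, LTP against control gave 0 calls among 10 genes at 1 hr by edgeR, against 0.789% of all genes tested (140 of 17736; 0.778% higher and 0.0113% lower). By overlap alone, the 1 hr LTP and control groups of 3 libraries were apart for 13.2% of 18332 genes and for none of the set. No gene of the set had an unadjusted p under 0.05, where 6.71% of all genes did (1190 of 17736). DESeq2 and limma-voom also gave 0 calls. The difference between the 3 hr and 1 hr LTP effects gave 0 calls in 9 genes by edgeR, DESeq2 and limma-voom. By edgeR, 0.0592% of all genes were called (11 of 18584, with 0.0269% higher and 0.0323% lower). None of the 9 had an unadjusted p under 0.05, where 6.59% of all genes did (1225 of 18584). For Has1 the difference between the effects was 2.67 on the log2 scale (SE 0.547), not tested. The median difference over the set was 0.15 at 1 hr and 0.03 at 3 hr (the latter without Has1), beside medians near 0 over all genes.

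**Figure D4:**
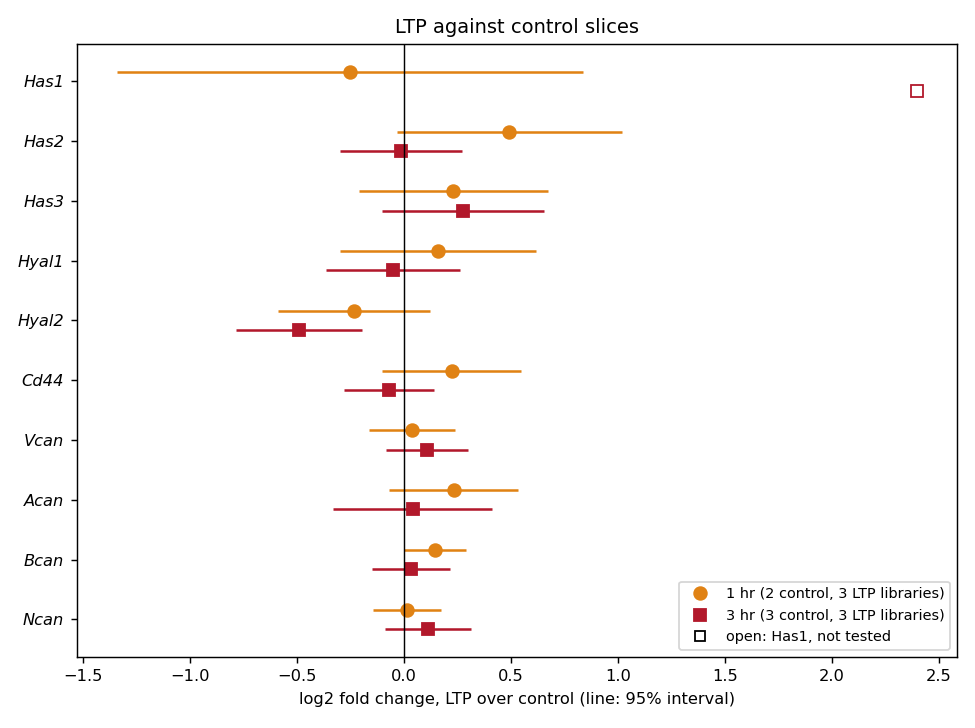
Log2 fold change of LTP over control for each gene (x axis) at 1 hr (circles) and 3 hr (squares), with 95% intervals from edgeR; the open square is Has1 at 3 hr, shown with no interval because it was not tested. Has1 lies at 2.40 at 3 hr, and of the tested genes only Hyal2 at 3 hr was called.

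Between 3 hr and 1 hr, 5 of 9 genes were called in control slices (Has2, Cd44, Acan and Bcan higher, Vcan lower), where 32.8% of all genes were called, 16.1% higher and 16.8% lower. In LTP slices 6 of 9 were called, the same genes and Ncan, where 35.9% of all genes were called, 18.6% higher and 17.3% lower. The groups of 3 libraries did not overlap between times for 43.0% of genes in control and 45.1% in LTP slices. The background was thus high, and time after treatment, time in the chamber and animal cannot be told apart in these comparisons. Whether libraries of the 2 times were prepared together was not stated. Over all libraries, Has2, Cd44 and Acan were higher and Vcan lower at 3 hr without overlap, as were 9.42% and 9.93% of all genes in these directions. Cell type markers moved with time as well. The 6 microglia markers summed to 171.7 to 200.7 CPM at 1 hr and 122.2 to 144.2 CPM at 3 hr, and 5 of 6 fell in control slices by edgeR. Of 5 mural cell markers 4 fell in control slices, and their sum went from 141.1 to 165.8 CPM at 1 hr to 113.7 to 122.0 CPM at 3 hr. The oligodendrocyte marker sum was 5602 to 8123 CPM at 1 hr and 7331 to 9104 CPM at 3 hr, with 2 of 5 higher in control slices. The oligodendrocyte precursor marker sum was 177.8 to 201.0 CPM at 1 hr and 191.5 to 223.3 CPM at 3 hr, with 3 of 5 called higher in control slices, and 2 higher and 1 lower in LTP slices. The markers of this list differed in direction: Pdgfra had a difference of -0.17 in control and -0.16 in LTP slices, under the fold change minimum, and Gpr17 gave -0.16 in control slices (adjusted p = 0.277, edgeR) and fell by 0.34 in LTP slices (adjusted p = 0.0151, edgeR). Of 7 markers of CA1 and CA3 pyramidal cells, 3 were called higher and 1 lower in control slices, and of 8 neuronal markers 3 were called lower. Of 5 endothelial markers 3 were called lower in control slices, with 1 higher and 1 lower in LTP slices. Their part in the differences of Has2, Cd44 and the lecticans was not tested. The summed astrocyte markers overlapped between all groups, with 1 of 6 higher and 1 lower in control slices.

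**Figure D5:**
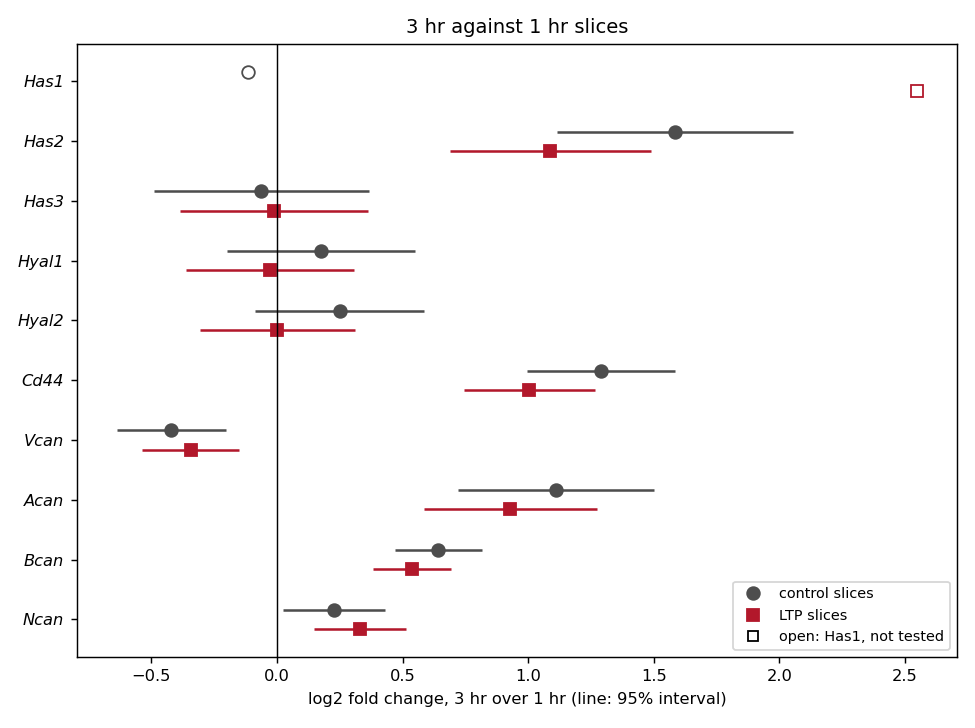
Log2 fold change of 3 hr over 1 hr slices for each gene (x axis) in control (circles) and LTP slices (squares), with 95% intervals from edgeR; open symbols are Has1, shown with no interval because it was not tested. Has2, Cd44, Acan and Bcan lie above 0 and Vcan below 0 in both treatments, whereas Has1 lies at 2.55 in LTP and -0.12 in control slices.

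Other genes of hyaluronan metabolism were counted from lists, and their calls were not checked with 1 library left out or under the other alternatives. The synthases use UDP-glucuronic acid and UDP-N-acetylglucosamine, and of 8 enzymes that make these precursors 2 were called lower in LTP slices at 3 hr, where 1.53% of all genes were. Gfpt2, which catalyses the entry step of the hexosamine pathway, was at 9.72 ± 1.11 CPM in 3 hr control and 5.98 ± 0.288 CPM in 3 hr LTP slices (SD, n = 3) and fell by 0.69 on the log2 scale (adjusted p = 0.0147, edgeR). Uap1l1 fell by 0.39 (adjusted p = 0.0281, edgeR). In control slices both were higher at 3 hr than at 1 hr, by 0.71 and 0.53 (adjusted p = 0.000923 and 0.002, edgeR). In LTP slices from 1 hr to 3 hr, Uap1l1 rose by 0.31 (adjusted p = 0.0196, edgeR) and Gfpt2 was not called. In control slices Ugdh, which makes UDP-glucuronic acid, was also higher at 3 hr (0.27, adjusted p = 0.0273, edgeR), and Ugp2 fell by 0.39 (adjusted p = 0.021, edgeR).

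None of 6 other hyaluronan-degrading enzymes tested and none of 14 other binding proteins and receptors tested was called between LTP and control slices at 3 hr by edgeR, with 2 and 1 genes at an unadjusted p under 0.05, beside 20.2% of all genes (3540 of 17508). Over time in control slices, 1 of these 6 enzymes was called higher and 1 lower, a share near the 32.8% of all genes called. The higher was Cemip2, a cell surface hyaluronidase, which rose by 0.48 (adjusted p = 0.00455, edgeR). Among the binding proteins, 3 of 14 were called higher and none lower in 3 hr control against 1 hr control slices, a share below the 32.8% of all genes called (16.1% higher). Ptx3 rose by 1.94 on the log2 scale (adjusted p = 7.06e-05, edgeR), Tnfaip6, whose product TSG-6 binds hyaluronan and transfers heavy chains onto it, by 0.93 (adjusted p = 0.00074), and Tlr2 by 0.75 (adjusted p = 0.00812).

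The lectican-cleaving ADAMTS proteases had 1 of 7 genes called under LTP at 1 hr and 3 of 7 at 3 hr, all higher, where 0.778% and 5.07% of all genes were called higher. Adamts1 rose by 0.48 at 1 hr (adjusted p = 0.00168, edgeR) and by 0.37 at 3 hr (adjusted p = 0.023, edgeR). Adamts4, the aggrecanase that also cuts brevican, was at 81.6 ± 12.7 CPM in 3 hr control and 114.5 ± 10.7 CPM in 3 hr LTP slices (SD, n = 3) and rose by 0.50 (adjusted p = 0.046, edgeR), and Adamts9 rose by 0.61 (adjusted p = 0.0137, edgeR). Among link proteins and lectican partners, 1 of 9 was called at 3 hr, near the 6.6% of all genes called: Tnr, whose product tenascin-R links lecticans in perineuronal nets, was at 106.8 ± 3.68 CPM in control and 145.7 ± 9.32 CPM in LTP slices and rose by 0.46 (adjusted p = 0.00974, edgeR). None of 18 enzymes of chondroitin sulfate synthesis tested was called under LTP at 3 hr by edgeR (4 at an unadjusted p under 0.05, near that share of all genes), while 5 were called higher and 1 lower in 3 hr control against 1 hr control slices, near the 32.8% of all genes called. Chpf2 rose by 0.71 (adjusted p = 0.000146) and Chpf by 0.62 (adjusted p = 0.00213) there by edgeR. In the same comparison 3 of 9 link proteins and partners were called, all higher: Hapln2 rose by 0.76, Cspg4 (also counted above as an oligodendrocyte precursor marker) by 0.68 and Tnc by 0.59. Of the proteases 3 of 7 were called, all higher: Adamts4 rose by 1.17, Adamts5 by 0.73 and Adamts1 by 0.58. Both counts stand beside 16.1% of all genes called higher. The difference between the 3 hr and 1 hr LTP effects gave 0 calls in each of these lists by edgeR, beside 0.0592% of all genes. At an unadjusted p under 0.05 there were 0 or 1 genes per list, beside 6.59% of all genes.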

How the data were processed

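The deposited tables, made by the authors, hold raw counts per gene, 1 table per time point, from stranded, ribosome-depleted libraries aligned with STAR to GRCm38/mm10. The study's text speaks of reads in coding regions, but the tables list non-coding genes too. Whether strand was used in counting was not stated. Of 41091 IDs, 40217 matched GENCODE M21. Library totals of 37118382 to 50815001 counts set a floor of 3 counts (0.059 to 0.0808 CPM without TMM scaling). Replicates were separate animals.

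In R 4.3.3, edgeR 4.0.16 tested the counts by quasi-likelihood (glmQLFTest) after filterByExpr and TMM, with Benjamini-Hochberg adjustment over all genes tested. A call needed a fold change over 1.2 with an adjusted p under 0.1 (the difference between effects: adjusted p alone). LTP and control were compared within each time point (5 libraries at 1 hr, 6 at 3 hr), and the comparisons across times used a model of 4 groups and 11 libraries. For ratios within an animal 0.1 CPM was added to both values. The test was checked on simulated counts. Alternatives were DESeq2 1.42.0, limma-voom (limma 3.58.1), other scalings and filters, the animal as a block, 1 hr control replicate 2 included, and each library left out. Animal numbers pair LTP and control libraries within a time point, per the labels. Correlations of deviations within pairs were -0.01, -0.24 and 0.078 at 1 hr and 0.067, 0.005 and 0.293 at 3 hr. Between LTP and control libraries of unlike animals they ran from -0.243 to 0.233 at 1 hr and from -0.382 to 0.321 at 3 hr. All 10 genes and the 5 genes most like Has1 and Cd44 were named, and from the other lists up to 4 called genes per comparison could be, of which some are given. Other called genes of these lists are not reported here. The genes and lists were chosen with earlier results of these data known.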

Additional observations from a re-analysis of the deposited data

How the results depend on the processing

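Over all alternatives, 765 of 816 tested values of the 10 genes kept their direction and their call, and 60 of 70 untested values of Has1 kept their sign and moved by less than the spread between replicates. Of the calls over time, Has2, Cd44, Acan and Bcan held in both treatments and Ncan in LTP slices under each alternative run, and Vcan held in all but 1. Has1 was 2.21 to 2.57 higher (log2) in LTP slices at 3 hr, a range over the same libraries that chose it and thus a description only. The number of genes of the set called at 3 hr ranged from 0 to 1 with 1 library left out, as given for Hyal2. Ncan in control slices was called with total count scaling (0.27) and without 1 hr control replicate 1 (0.34) or 3 hr control replicate 1 (0.27). With animal as a replicate block, the 1 hr difference of Vcan was -0.064 and the difference of effects of Has3 was -0.080, and no call of the set changed. No paired analysis was possible because animals at the 2 times were taken as different, for 3 hr against 1 hr. With 1 hr control replicate 2 included, the 1 hr differences were 0.0021 for Has1, -0.085 for Bcan and -0.070 for Ncan (with the block -0.057 and -0.067), the difference of effects was 0.11 for Bcan and 2.39 for Has1, and 3 hr against 1 hr was 0.18 for Has1 in control and 0.0063 for Has3 in LTP slices. In LTP slices, Hyal2 over time was -0.012 by limma-voom and -0.014 with upper quartile scaling, and Has3 was 0.0068 with total counts. With 1 library left out, small differences crossed 0: at 1 hr Has1 (-0.68 to 0.22), Vcan (-0.064 to 0.10) and Ncan (-0.056 to 0.084); at 3 hr Has2 (-0.14 to 0.071), Hyal1 (-0.15 to 0.018), Acan (-0.086 to 0.19) and Bcan (-0.019 to 0.11); in the difference of effects Has3 (-0.12 to 0.19) and Vcan (-0.00079 to 0.19); over time in control Has1 (-0.42 to 0.39) and Has3 (-0.15 to 0.12); in LTP slices Has3 (-0.16 to 0.15), Hyal1 (-0.11 to 0.12) and Hyal2 (-0.085 to 0.13). The cause was not tested. Genes called overall ranged from 69 (without 1 hr control replicate 1) to 347 (no filter) at 1 hr, with 78 when control replicate 3 was left out, and 92 or 344 when LTP replicate 1 or 3 was. At 3 hr, leaving out control replicate 1, 2 or 3 gave 313, 228 or 415, and leaving out LTP replicate 1 or 2 gave 331 or 2170. For the difference of effects they were 80 by DESeq2, 102 with no filter and 1 to 67 with 1 library left out. Has1 had no value with at least 10 counts required in every library, except at 3 hr. With the longest transcript as length, levels were 0.813 (Hyal1), 3.29 (Vcan) and 50.1 (Bcan) CPM per kb, and 8 of 10 ranks held. With coding length, added after seeing the data, 5 of 10 ranks held, the lengths being shorter by unequal amounts. Has1 rested on 8 to 25 counts per library at 1 hr, with a 95% interval of -1.34 to 0.83 for its LTP difference.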
